A study of Mus musculus with 38 samples.

Results

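The Gata3 locus of mouse lymphoid progenitors was read in 17 lists of chromatin immunoprecipitation (ChIP-seq) peaks, together with the long gene-poor stretch that follows the gene. Every peak was taken whose centre lay from 50 kb before the Gata3 gene body to 700 kb after its 3′ end. In the GENCODE annotation of the mm10 build the Gata3 gene (ENSMUSG00000015619.10) covers 33 kb of chromosome 2, from 9857078 to 9890034 on the minus strand, and the window runs from 9157078 to 9940034, which is 783 kb. It held 116 of the 359759 peaks of the series, and peaks of different lists that overlapped were joined into 27 sites. Distances below are in kb after the GENCODE 5′ end of the gene, with negative values before it. The start used in RefSeq (NM_008091) lies 11.4 kb further into that gene body, at position 9878600, so a site 295.9 kb after the GENCODE start is 284.5 kb after the RefSeq start.

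All samples came from Cas9-LP cells, a line made from fetal liver progenitors of mice that lack Ebf1, a factor needed for B cell development, and that carry Cas9 in the Rosa26 locus. The Ebf1 loss and the Cas9 transgene were therefore shared by every group, controls included, and all cells were grown with SCF, Flt3L and IL-7. LP cells were kept on OP9 stroma, which presents no added Notch ligand, whereas Phase 1 and the later Phase 2 cells were cultured on OP9-DLL4 stroma, which presents the ligand DLL4. Phase 1 cells had 2 days of Notch stimulation, a time that the labels leave out, and they give none for Phase 2 either. RUNX1, CTCF, the Mediator subunit Med12 and the acetyltransferase p300 were profiled in LP and Phase 1, and the intracellular domain of Notch1 (Notch1-IC) in these and in Phase 2. Further lists came from cells transduced with retroviral guide RNAs: RUNX1 in LP with a control guide (sgCont) or sgCTCF, RUNX1 in Phase 1 with sgCont or sgMed12, and Med12 in Phase 1 with sgCont or sgCbfb. Of the 38 samples, 34 were ChIP samples in 17 groups of 2 replicates and 4 were inputs. Each list combines the 2 replicates of its group, so no spread between replicates can be given, no difference between lists was tested, and the intervals below cover counting error only. Neighbouring peaks can also depend on each other, which such intervals leave out.

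Gata3 encodes a zinc finger transcription factor that binds GATA sequences and is required for the development of T cells from early thymic progenitors. It is switched on early in the T-lineage program, when progenitors receive Notch signals, and it is also known for its role in T helper 2 cells. The gene is followed by a region with few coding genes, and regulatory elements far from the Gata3 promoter are known in this region. RUNX1 binds DNA with its partner Cbfb. Notch1-IC does not bind DNA alone but acts through RBPJ. Mediator and p300 are coactivators that mark active enhancers and promoters, and CTCF shapes chromatin loops.

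The 27 sites were unevenly placed. When sites less than 20 kb apart were grouped, the group with the most peaks spanned 49.5 kb, from 282.2 to 331.3 kb after the gene start, and held 9 sites and 40 peaks. A second distal group of 3 sites between 87.3 and 93.8 kb held 26 peaks. The gene and its surroundings, from 18.7 kb inside the gene to 10.3 kb before it, had 6 sites with 29 peaks. A small group of 3 sites at 200.3 to 208.3 kb held 9 peaks, all from Phase 1. The remaining 6 sites stood alone or as a pair, at 574.6, 424.9 and 408.2, 369.7, 62.1 and -34.4 kb. Sites at 295.9 and 294.5 kb fall in an intron of the long noncoding RNA gene Gm13218, the site at -34.4 kb falls in an intron of Taf3, which encodes a subunit of the general transcription factor TFIID, and no annotated gene overlaps the other distal sites. Of the 13 genes that GENCODE places wholly or partly in the window, 8 had no peak: 1700061F12Rik, Gm23963, Gm13221, Gm13219, Gm13220, Gm37866, 4930412O13Rik and Gm13262.

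**Figure D1:**
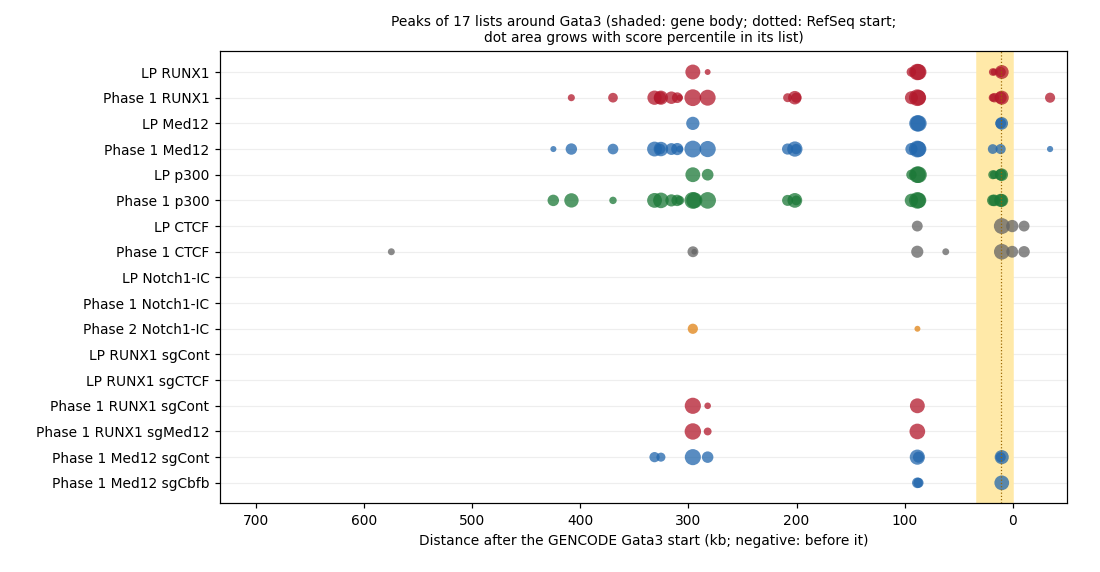
Position of the 116 peaks, 1 row for each list, with the distance after the GENCODE Gata3 start in kb on the horizontal axis; the gene is shaded and the dotted line is the RefSeq start. Dot area grows with the percentile of the peak score in its own list. The rows of RUNX1, Med12 and p300 fill between 200.3 and 408.2 kb in Phase 1, where the LP rows hold peaks at 295.9 and 282.2 kb alone.

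The DNA under the sites that the results turn on is shown first, 200 bases around the peak centre read from the mm10 genome (GRCm38.p6) on the strand of Gata3. Capitals mark short strings that are known parts of binding motifs, read on either strand, so a capital run can also be the reverse complement of a string. For RUNX proteins the string was TGTGGT, with TGCGGT as its variant. For RBPJ it was TGGGAA. For GATA factors it was AGATAA, and the variant that was searched beside it was TGATAA. The RBPJ string can overlap the ETS-family string GGAAGT, which was also counted. A match describes the letters and is no evidence of binding. The first pair of sequences lies under the Phase 2 Notch1-IC peaks.
Site at 295.9 kb, chr2:9594066-9594265, minus strand: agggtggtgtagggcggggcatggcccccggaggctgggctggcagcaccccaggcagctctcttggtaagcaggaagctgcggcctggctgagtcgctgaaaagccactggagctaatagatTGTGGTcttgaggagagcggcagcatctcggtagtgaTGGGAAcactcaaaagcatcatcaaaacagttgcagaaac
Site at 88.3 kb, chr2:9801672-9801871, minus strand: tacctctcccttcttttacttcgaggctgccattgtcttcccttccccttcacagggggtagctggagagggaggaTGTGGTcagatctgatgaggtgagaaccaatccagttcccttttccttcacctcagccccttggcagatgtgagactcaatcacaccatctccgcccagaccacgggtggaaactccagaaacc
The site at 295.9 kb holds TGTGGT at bases 124 to 129 and TGGGAA at bases 161 to 166, counted from 1 at the 5′ end of the printed strand. The site at 88.3 kb holds TGTGGT at bases 77 to 82 and neither RBPJ nor GATA string.

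The next 4 sequences lie under the highest-scored RUNX1 peaks that were found in Phase 1 and not in LP.
Site at 331.3 kb, chr2:9558641-9558840, minus strand: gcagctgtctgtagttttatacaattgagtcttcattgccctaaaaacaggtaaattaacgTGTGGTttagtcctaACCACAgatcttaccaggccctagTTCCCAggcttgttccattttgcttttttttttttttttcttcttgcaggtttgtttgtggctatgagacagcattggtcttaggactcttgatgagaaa
Site at 325.4 kb, chr2:9564524-9564723, minus strand: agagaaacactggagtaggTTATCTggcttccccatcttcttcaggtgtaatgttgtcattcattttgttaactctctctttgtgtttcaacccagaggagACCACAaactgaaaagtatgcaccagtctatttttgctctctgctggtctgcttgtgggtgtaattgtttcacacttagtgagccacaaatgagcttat
Site at 201.6 kb, chr2:9688295-9688494, minus strand: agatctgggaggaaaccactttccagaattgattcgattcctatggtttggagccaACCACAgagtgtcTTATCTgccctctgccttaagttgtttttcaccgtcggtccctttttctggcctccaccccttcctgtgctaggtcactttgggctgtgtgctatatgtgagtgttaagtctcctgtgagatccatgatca
Site at 315.7 kb, chr2:9574219-9574418, minus strand: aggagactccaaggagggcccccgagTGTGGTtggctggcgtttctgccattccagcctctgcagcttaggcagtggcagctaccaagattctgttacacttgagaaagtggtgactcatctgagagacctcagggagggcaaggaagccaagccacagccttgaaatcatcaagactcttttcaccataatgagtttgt
Each of these 4 holds a RUNX string. The site at 331.3 kb has 2 of them, at bases 62 to 67 and 77 to 82, and an RBPJ string at bases 101 to 106. The sites at 325.4 and 201.6 kb each hold a GATA string, at bases 20 to 25 and 70 to 75, and the site at 315.7 kb has an AP-1 string (TGANTCA) at bases 113 to 119. For contrast, the 250 bases before the RefSeq start have a GC content of 70% and none of the marked strings.
Promoter, chr2:9878601-9878850, minus strand: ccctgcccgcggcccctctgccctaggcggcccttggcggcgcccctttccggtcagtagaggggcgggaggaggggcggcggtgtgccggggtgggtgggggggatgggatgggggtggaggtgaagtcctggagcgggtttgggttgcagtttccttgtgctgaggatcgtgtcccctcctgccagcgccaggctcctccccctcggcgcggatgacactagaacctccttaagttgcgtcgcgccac
RUNX strings occur in 18.6%, RBPJ strings in 21.6% and GATA strings in 16.6% of 32851 RefSeq promoters, searched in the 250 bases before the start.

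To ask how occupancy at the locus differed before and after Notch stimulation, the LP and Phase 1 lists were compared for each factor. Phase 1 had more peaks of every staged factor in the window: 21 against 9 for RUNX1, 20 against 5 for Med12, 21 against 9 for p300 and 8 against 4 for CTCF. Per Mb, RUNX1 peaks numbered 11.5 in the window and 11.7 over the genome in LP, and 26.8 and 14.1 in Phase 1. Med12 went from 6.39 per Mb in LP, below its genome value of 11, to 25.5 in Phase 1, above its genome value of 14.4. For p300 the window held 11.5 and 26.8 peaks per Mb in LP and Phase 1, and the genome 13.3 and 18. CTCF stayed below its genome value in both stages, at 5.11 and 10.2 per Mb against 16.7 and 16.4. Of the 27 sites, 16 had no LP peak of any factor and 0 were listed in LP alone. RUNX1, Med12 and p300 were listed together at 5 sites in LP and at 17 sites in Phase 1. Sites were joined in the window alone, so no share over the genome stands beside these site counts. The Phase 1 lists of RUNX1, Med12 and p300 are also longer, with 38399, 39132 and 49116 peaks against 31995, 30020 and 36182 in LP.

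A peak was called stage-specific when no peak of the same factor in the other stage overlapped it by at least 1 bp. None of the 9 LP RUNX1 peaks was LP-specific (0%, 95% Wilson interval 0 to 29.9%), where 16.8% of all LP RUNX1 peaks were. The Phase 1 list is longer, with 38399 peaks against 31995, and when both lists were limited to the same length by score 1 of 9 was LP-specific (11.1%), since the Phase 1 peak at 18.7 kb ranks 32846 in its list. Of the 21 Phase 1 RUNX1 peaks, 12 were Phase 1-specific (57.1%, interval 36.5 to 75.5%), and the share over the whole Phase 1 list, 30.7%, lay below that interval. With lists of equal length it was 10 of 18 (55.6%), and with promoter peaks left out 12 of 20 (60%). All list shares in this paragraph include promoter peaks, while the window held 1 promoter peak among its 21. No list share is given for either setting, so a comparison with non-promoter peaks alone was not made. For Med12, 16 of 20 Phase 1 peaks were Phase 1-specific (80%, 58.4 to 91.9%), against 38.2% of the list. For p300 the count was 12 of 21 (57.1%, 36.5 to 75.5%), and the list share of 41.6% lay inside the interval. For CTCF it was 4 of 8 (50%, 21.5 to 78.5%), against 8.35% of the list, although the 4 peaks were low in their list, as given below. In the LP direction, 0 of 9 p300 peaks (list 20.7%), 0 of 4 CTCF peaks (list 9.55%) and 1 of 5 Med12 peaks (list 19.5%) were LP-specific. The 1 LP-specific Med12 peak, at 10.3 kb, was listed in both Phase 1 guide lists, so its absence holds for the unguided Phase 1 list alone.

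**Figure D2:**
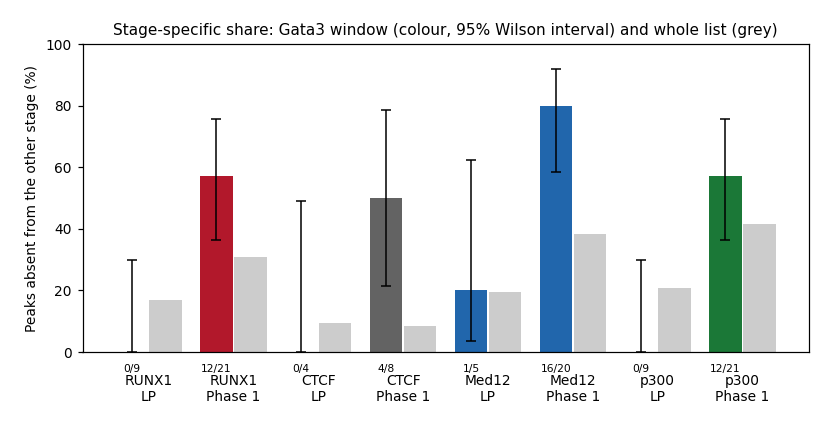
Share of peaks in percent that had no overlapping peak of the same factor in the other stage, for the Gata3 window (coloured bars with 95% Wilson intervals, counts beneath) and the whole list (grey bars). The window share is above the list share for RUNX1, Med12, p300 and CTCF in Phase 1, and the p300 interval includes the list share. List shares include promoter peaks.

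The 12 Phase 1-specific RUNX1 peaks lay at 408.2, 369.7, 331.3, 326.2, 325.4, 315.7, 310.3, 308, 208.3, 201.6, 200.3 and -34.4 kb. They were 45.8 to 396.7 kb from the RefSeq start, with a median of 301.6 kb, whereas the 9 shared peaks lay 0.124 to 284.5 kb from it, with a median of 75.88 kb. All 7 shared peaks other than those at 295.9 and 282.2 kb were at 93.8 kb or nearer to the GENCODE start, a split that was noticed after the positions were seen. The score of a peak is the authors' normalized score and was compared only within a list, as a percentile that gives the share of the list with a lower score. Scores of different lists that stand side by side are listed values and not measured changes. The Phase 1-specific RUNX1 peaks scored 16.7 to 72.3, with a median of 28.6, at percentiles from 5.83 to 68.6. Their median percentile was 31.6, and that of all 11789 Phase 1-specific RUNX1 peaks was 22. The highest were those at 331.3 kb (score 72.3), 325.4 kb (70.4) and 201.6 kb (57.3), and the lowest were those at 308 kb (16.7) and 408.2 kb (17.6), close to the lowest score that the authors kept, 15.

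Coactivators accompanied these peaks, for p300 about as often as over the list. A Phase 1 Med12 peak overlapped 12 of the 12 Phase 1-specific RUNX1 peaks (interval 75.8 to 100%), beside 75% of all Phase 1-specific RUNX1 peaks. A Phase 1 p300 peak overlapped 10 of 12 (83.3%, 55.2 to 95.3%), beside 79.6%, with the sites at 326.2 and -34.4 kb as the exceptions. With a minimum score of 30, Med12 was found at 7 of 9 (77.8%) and p300 at 8 of 9 (88.9%), with no list share given at that score. In LP the same 12 sites had no Med12 peak (list share 8.4%) and no p300 peak (19.4%), and no Phase 1 CTCF peak overlapped them (6.96%). At 331.3 kb the Phase 1 scores were 72.3 for RUNX1, 74 for Med12 and 90.4 for p300, which stood at percentiles of 68.6, 75.2 and 74.8 in their lists. The sites at 325.4 and 326.2 kb are adjacent, yet p300 was listed at the former alone, with a score of 125.8. At 201.6 kb the scores were 57.3, 84.8 and 87.5, and its neighbours at 200.3 and 208.3 kb were lower in all of these lists, with RUNX1 scores of 27.2 and 22.4. Med12 and p300 also stood without RUNX1 at 424.9 kb, with scores of 15.9 and 35.5.

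**Figure D3:**
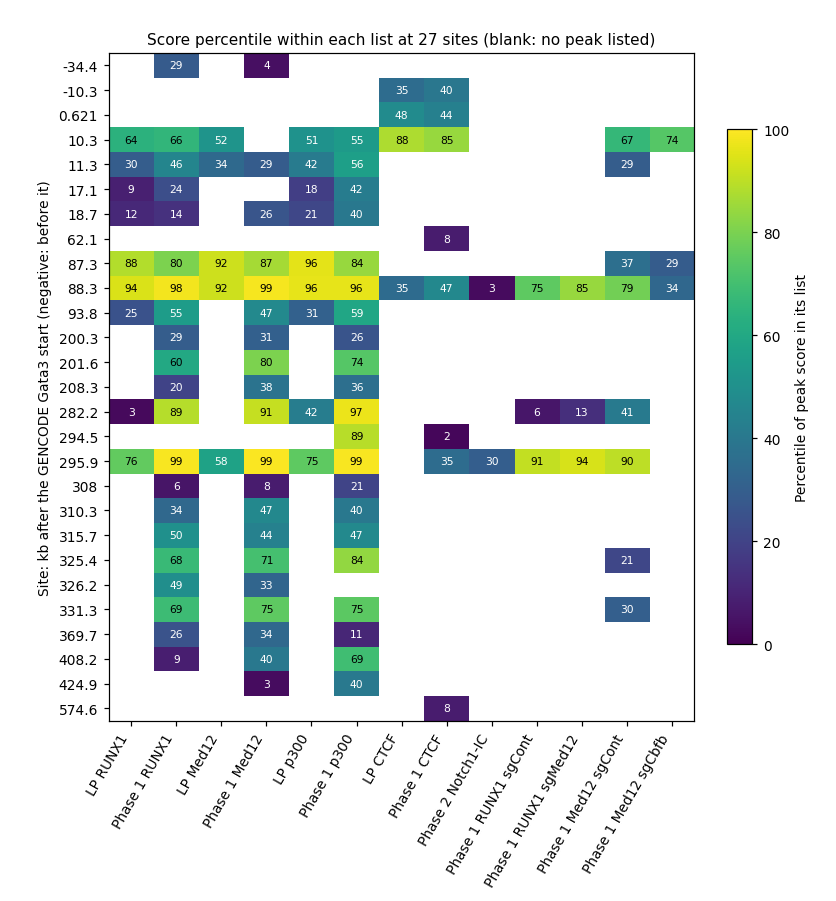
Percentile of the peak score within its own list (0 to 100, colour and number) at the 27 sites, ordered by kb after the GENCODE Gata3 start, in the 13 lists with a peak in the window. Blank cells have no listed peak. The sites at 88.3 and 295.9 kb carry the most lists, and the rows from 308 to 408.2 kb are filled in Phase 1 columns alone.

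The site at 295.9 kb had the highest Phase 1 scores of the window for RUNX1, Med12 and p300. It was already listed in LP, with scores of 92.9 for RUNX1, 58.8 for Med12 and 110.6 for p300, at percentiles of 75.8, 57.6 and 75. In Phase 1 the scores were 368.2, 308.9 and 483.9, at percentiles of 99.1, 99.4 and 99, and the RUNX1 peak ranked 336 among 38399. It gained 41.9 percentile points for Med12, and 5.09% of the 24171 Med12 peaks shared by both stages gained as much. The gain was 23.4 points for RUNX1, matched by 11.7% of shared peaks, and 24 points for p300, matched by 13.1%. A Phase 1 CTCF peak overlapped this site (score 43.7, percentile 35.3), where LP had none. At 294.5 kb, next to it, p300 (score 162.2) and a weak CTCF peak (16.9) were listed in Phase 1 without RUNX1.

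The site at 282.2 kb, or 270.7 kb from the RefSeq start, moved most. Its RUNX1 peak scored 15.9 in LP, at percentile 2.61 and just above the lowest score kept, and 146.8 in Phase 1, at percentile 88.7. Only 5 of 26610 shared RUNX1 peaks (0.0188%), this one included, rose by at least its 86.1 points. The p300 peak went from 43.6 (percentile 42.4) to 304 (96.9), and 1.81% of shared p300 peaks rose as much. Med12 was not listed there in LP and scored 128.9 in Phase 1, at percentile 91.2. The RUNX1 peak counts as shared although its LP score was near the limit. Both RUNX1 windows at this site hold 2 RUNX strings and 1 RBPJ string.

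The sites at 87.3 and 88.3 kb were strong in both stages. At 88.3 kb RUNX1 scored 200.1 in LP and 312.6 in Phase 1, at percentiles of 94.5 and 98.3. Med12 scored 176 and 247.5 there, and p300 307.6 and 279.9. This was the site with the most peaks, 13, and the 1 distal site with CTCF in both stages (41.6 and 62.3). At 87.3 kb all 3 factors were lower in Phase 1 by percentile, with RUNX1 going from 88.5 to 80.3, Med12 from 92.5 to 86.7 and p300 from 96 to 84.5. At 93.8 kb RUNX1 went from 26.4 to 50.4 in score and from 25 to 55.4 in percentile, and a Med12 peak (37.5) was listed in Phase 1 alone.

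Over the 9 shared RUNX1 peaks, 8 had a higher percentile in Phase 1, where 61.8% of all shared RUNX1 peaks did, and the median change was 15.4 points beside 2.59. For p300 it was 7 of 9, beside 64.4%, with a median change of 18.7 points beside 3.08. For Med12 2 of 4 rose, beside 59%, and the median change of 0.778 points was below the 2.9 of the list. For CTCF 2 of 4 rose, beside 45.7%, with a median change of 0.646 points beside -0.513. Percentiles of lists of unequal length are not a measure of bound protein, and the lists carry no error between cultures.

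**Figure D4:**
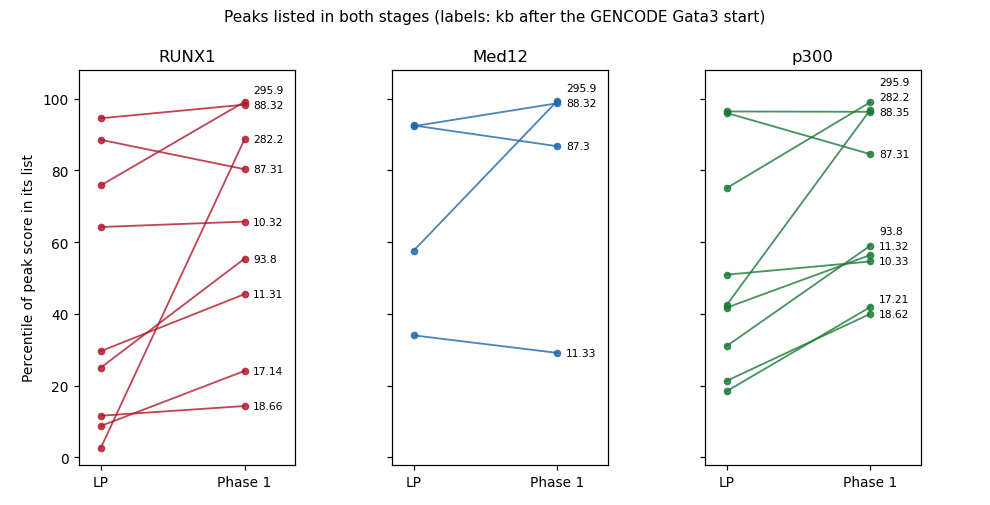
Percentile of the peak score in the LP and in the Phase 1 list for RUNX1, Med12 and p300 peaks found in both stages, 1 line per site, labelled with kb after the GENCODE Gata3 start. The RUNX1 line at 282.2 kb climbs from 2.61 to 88.7, while the lines at 87.3 kb fall in all 3 panels.

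At the gene itself RUNX1 and p300 were listed in both stages at 4 sites. The site at the RefSeq start (11.3 kb, centre 0.124 kb before that start, also an exon of the antisense gene Gm13256) had RUNX1 scores of 29.4 and 39.4 in LP and Phase 1, Med12 scores of 33.3 and 25.9 and p300 scores of 42.9 and 53.1. These were modest values, at percentiles from 29.1 to 56.4. The neighbouring site at 10.3 kb, upstream of the RefSeq start, had RUNX1 scores of 67.7 and 66.5 and p300 scores of 55.7 and 50.7. It also carried the highest CTCF scores of the window, 197.5 in LP and 193.7 in Phase 1. Within a Gata3 intron, at 17.1 and 18.7 kb, RUNX1 scored 18.3 and 19.6 in LP and 24.3 and 19.8 in Phase 1, and p300 was present in both stages. A Med12 peak (24.5) was listed at 18.7 kb in Phase 1 and at neither intronic site in LP.

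Of the 9 LP RUNX1 peaks, 9 had LP p300 (list 90.8%) and 5 had LP Med12 (55.6%, interval 26.7 to 81.1%), below the 84.7% of the list. The 4 without LP Med12 were at 282.2, 93.8, 18.7 and 17.1 kb. Phase 1 Med12 was listed at 3 of the 4 (75%, 30.1 to 95.4%), close to the 69.8% of all shared RUNX1 peaks without LP Med12, and the peak at 17.1 kb was the exception.

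CTCF overlapped RUNX1 about as often as elsewhere. In LP 2 of 9 RUNX1 peaks had CTCF (22.2%, 6.32 to 54.7%, list 23.2%), at 10.3 and 88.3 kb. In Phase 1 it was 3 of 21 (14.3%, 4.98 to 34.6%, list 15.7%), with 295.9 kb added. The centres of these 3 CTCF peaks lay 52 to 135 bp from the RUNX1 centres, with a median of 107 bp, whereas Med12 centres lay a median of 9 bp and p300 centres 18 bp away. Over all Phase 1 RUNX1 peaks the medians were 99 bp for CTCF, 20 bp for Med12 and 23 bp for p300, so this order is general. The 4 Phase 1-specific CTCF peaks, at 574.6, 295.9, 294.5 and 62.1 kb, scored 20, 43.7, 16.9 and 19.9. Their median percentile was 7.68, and that of all Phase 1-specific CTCF peaks was 10.9. CTCF stood without any other factor at 4 sites, at 574.6, 62.1, 0.621 and -10.3 kb. The first lies in a B3A and the last in a B2_Mm2 element, both SINE repeats of the B2 family. A CTCF core string of 12 bases, with at most 1 mismatch, was found at 3 of 8 Phase 1 CTCF peaks (62.1, 0.621 and -10.3 kb), beside 63.4% of all Phase 1 CTCF peaks and 2.49% of windows 2 kb away. No such string was found at the 5 others, among them those at 10.3, 88.3 and 295.9 kb, which overlap RUNX1.

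RUNX strings occurred within 200 bp around the centre at 15 of 21 Phase 1 RUNX1 peaks (71.4%), beside 47.6% of the list and 17% of windows 2 kb away. They occurred at 5 of 9 LP peaks (55.6%), beside 42%. The 6 Phase 1 peaks without one were at 408.2, 208.3, 87.3, 18.7, 11.3 and 10.3 kb. GATA strings were found at 4 of 21 Phase 1 RUNX1 peaks (325.4, 208.3, 201.6 and -34.4 kb), all Phase 1-specific, and at 0 of 9 LP peaks. The shares over the lists were 13% and 9.97%, and 18.2% of windows 2 kb from Phase 1 peaks held one. No share over all Phase 1-specific RUNX1 peaks was computed, so the split of GATA strings by stage is a description alone. RBPJ strings were found at 5 of 21, beside 16.3% of the list and 18.4% of such windows. The ETS string was found at 4 of 21 (list 31.9%), the TCF string CTTTGA at 2 of 21 (12%, and at 5 of 21 when whole peaks were searched) and the AP-1 string at 2 of 21 (10.7%).

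To ask where Notch1-IC was found at the locus, its lists of 3 stages were read. Phase 2 had 2 peaks, at 295.9 and 88.3 kb, while LP, with 1585 peaks over the genome, and Phase 1, with 152, had 0. The Phase 1 and Phase 2 Notch1-IC lists used here are shorter than the peak sets the study describes for these stages, so a missing peak and each overlap share below hold for these lists alone. The Phase 2 peaks scored 17.4 and 15.2, at percentiles of 29.8 and 2.84 of 352 peaks, so both were near the lowest score kept. Both overlapped a Phase 1 RUNX1 peak (74.1% of the Phase 2 list did), an LP RUNX1 peak (53.4%) and a Phase 1 CTCF peak (13.9%), and neither overlapped a Phase 1 Notch1-IC peak (24.4%). Their centres lay 45 and 53 bp from the RUNX1 centre. Both 200-base windows hold a RUNX string, as do 52.5% of the Phase 2 list, and an RBPJ string was found at 295.9 kb and not at 88.3 kb, beside 51.3% of the list. In these samples Phase 2 was profiled for Notch1-IC alone, so these overlaps join different stages.

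To ask whether Med12 peaks depended on the RUNX partner Cbfb, the Phase 1 Med12 lists of sgCont and sgCbfb cells were compared. Lists from guide-transduced cells were shorter, and of the 20 Med12 peaks of unguided Phase 1 cells 7 had a sgCont peak (35%, 18.1 to 56.7%, list 45.4%). The sgCont list had 8 peaks in the window, and all 8 overlapped Phase 1 RUNX1, as did 94.4% of that list. The sgCbfb list kept 3 of the 8 (37.5%, 13.7 to 69.4%), where it kept 67.8% of the whole list. Outside promoters it kept 3 of 7 (42.9%, 15.8 to 75%), close to the 49.8% of all such peaks, so the share at the locus was near that of non-promoter peaks.

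The kept peaks were at 88.3, 87.3 and 10.3 kb. At 88.3 kb Med12 scored 64.6 in sgCont and 26.8 in sgCbfb, at percentiles of 78.9 and 33.5. At 87.3 kb the scores were 28.4 and 24.8, at percentiles of 36.7 and 29.2. At 10.3 kb they were 48.8 and 60.8, at percentiles of 66.6 and 73.6. All 3 sites had Med12 already in LP. Among sgCont peaks with an LP Med12 peak 3 of 5 were kept (60%, 23.1 to 88.2%, list 72.6%), and among those without 0 of 3 were (0 to 56.1%, list 28.8%).

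The sites absent from the sgCbfb list were at 331.3, 325.4, 295.9, 282.2 and 11.3 kb, with sgCont scores of 25.2, 21.4, 92.1, 30.3 and 24.8. All 4 sgCont peaks of the group between 282.2 and 331.3 kb were thus absent. The peak at 11.3 kb is a promoter peak, so the non-promoter shares below do not cover it. The kept share was 67.8% over the whole list and 49.8% outside promoters, so promoter peaks were kept more often. The peak at 295.9 kb was the highest sgCont Med12 peak of the window, at percentile 90.1. Among the 308 non-promoter sgCont peaks in the top 10% of the list by score, 259 were kept (84.1%), and this peak was not. Over all non-promoter peaks the kept share rose with score, from 33.1% in the lowest 10% of the list. The peaks at 331.3, 325.4 and 282.2 kb, at percentiles of 30.1, 21.1 and 40.7, stood in score classes of that width with kept shares of 42.6 to 51.1%. How efficiently the guides removed Cbfb in these cells is not given by the lists.

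**Figure D5:**
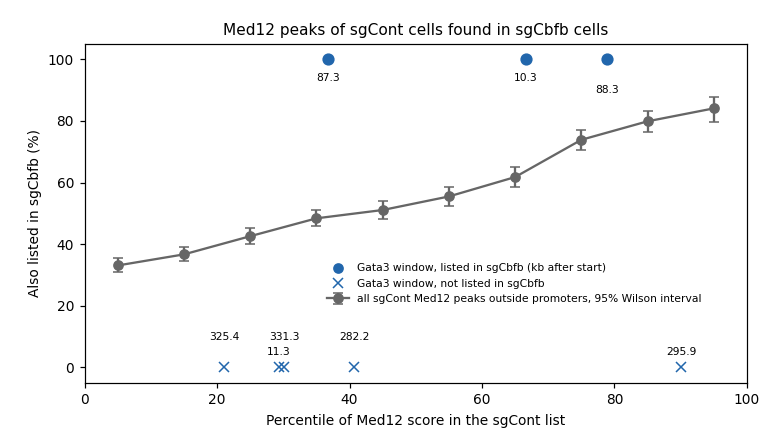
Percentile of the sgCont Med12 score (horizontal) against the percent of sgCont Med12 peaks also listed in sgCbfb: grey points are all non-promoter peaks in 10 classes of score with 95% Wilson intervals. Blue marks are the 8 peaks of the Gata3 window, at 100 when listed in sgCbfb and at 0 when not, labelled with kb after the GENCODE start. The peak at 11.3 kb is a promoter peak, which the grey points do not cover. The peak at 295.9 kb is not listed, where 84.1% of peaks in its class were.

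RUNX1 peaks of guide-transduced Phase 1 cells were found at 295.9, 88.3 and 282.2 kb, with sgCont scores of 44.4, 33 and 15.9. The sgMed12 list had the same 3 sites, with scores of 37.6, 30.4 and 16.2, so 3 of 3 were kept (interval 43.9 to 100%), beside 71% of the sgCont list. The sgMed12 list is longer, with 2094 peaks against 1550, and with lists of equal length 2 of 3 were kept (66.7%), the peak at 282.2 kb, which ranks 1802 in sgMed12, being lost. No list share is given for equal length. At 295.9 kb these peaks stood at percentiles of 91 in sgCont and 94 in sgMed12. The sgCont list was short, yet it overlapped 3 of the 21 unguided Phase 1 RUNX1 peaks of the window (14.3%, 4.98 to 34.6%), beside 3.98% of the whole list. In LP neither the sgCont list of 975 RUNX1 peaks nor the sgCTCF list of 874 had a peak in the window, so no effect of sgCTCF could be read at Gata3. At 295.9 kb the Med12 peak was absent from the sgCbfb list and the RUNX1 peak was present in the sgMed12 list, which come from different cultures.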

How the data were processed

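ChIP-seq was done on Cas9-LP cells fixed with disuccinimidyl glutarate and formaldehyde. The authors aligned reads to mm10 with Bowtie 1.1.1, called peaks with HOMER in factor mode against a matched control, kept peaks reproducible between both replicates (irreproducible discovery rate) and required a normalized peak score of at least 15. The deposited score has no scale stated in the file headers. Scores of different lists are printed side by side as listed values, and only percentiles within a list were compared between lists. The number of reads per sample was not used here, so a shorter list cannot be told apart from a shallower one. The study describes ChIP-seq of guide-transduced cells as noisier. The 4 inputs have no list and entered no comparison.

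Groups came from the labels. Peaks were assigned to the window by centre and called overlapping from 1 shared bp. Genes came from GENCODE M21. Strings were searched in 200 bp around peak centres and in windows 2 kb to each side, using Python 3.11.15, pandas 2.3.3, numpy 2.4.6, scipy 1.17.1 and pysam 0.24.0. Shares of overlapping peaks were given 95% Wilson intervals and set beside the share of the whole list, whereas string counts and counts of rising percentiles have no interval. The overlap matching was tested on simulated intervals, and the string search had no such test. Single peaks were named when they were Notch1-IC peaks, stage-specific RUNX1 peaks, peaks at or inside Gata3, RUNX1 peaks of a guide list, CTCF peaks that were stage-specific or overlapped RUNX1, or among the 3 highest of a list. Sites in the figures, Med12 and p300 peaks beside these, the groups of sites, the changes of percentile and the kept share by class of score were added after the values were seen. The window, the factors and the strings were chosen with earlier results of these data known. Alternatives were lists of equal length, promoter peaks left out, any base of a peak in the window, a minimum score of 30, a 300 kb window, centres within 100 bp, overlap of 50%, sites merged within 500 bp, whole peaks for strings, the CTCF string without mismatch, and the start of the authors' annotation.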

Additional observations from a re-analysis of the deposited data

How the results depend on the processing

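Of 84 recomputed shares and totals, 81 stayed within the set limits (1.5 times for a count, the 95% interval for a share) and 3 moved. Intervals of so few peaks are wide, so a share could hardly leave them and this tally is no measure of robustness. A change of CTCF at LP RUNX1 peaks from 22.2% to 50% with a minimum score of 30 counted as staying. Of the further recomputed values (peaks per list, string counts and distances), 73 stayed and 20 moved. Whether a share crossed from above to below the share of the whole list, or the reverse, was not tested. List shares were mostly not recomputed at the other settings. With a minimum score of 30 the window held 77 peaks, the Phase 1-specific share of CTCF was 20% (1 of 5), and 0 of the 2 Notch1-IC peaks remained. With peak centres within 100 bp in place of 1 shared bp, CTCF was found at 4.76% of Phase 1 RUNX1 peaks (1 of 21). Measured from the start of the authors' annotation, the Notch1-IC peaks lay at 284.4 and 76.83 kb. When whole peaks were searched, TCF strings were found at 5 rather than 2 Phase 1 RUNX1 peaks and RBPJ strings at 5 rather than 1 Phase 1 CTCF peaks. Without a mismatch, the CTCF core string was found at 0 of 8 Phase 1 and 0 of 4 LP CTCF peaks, beside 16.6% of each whole list. With lists of equal length, 1 rather than 0 of 9 LP RUNX1 peaks was LP-specific, and 2 rather than 3 of 3 sgCont RUNX1 peaks were kept in sgMed12. Leaving out a replicate was not possible because each list combines both. No paired analysis was possible because each list combines both replicates and no result comes from a test. A peak that is not listed did not pass the authors' calling, reproducibility and score filters, which does not show that the site was unbound, and reads per sample were not used here.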
